A study of Mus musculus with 10 samples.

Results

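The Skint genes encode butyrophilin-like membrane proteins of mouse keratinocytes and thymic epithelium. Of 10 listed symbols of the family (Skint1 and Skint3 to Skint11), 7 were members by the rule, which asked for a normalised level of at least 1 CPM (reads scaled to a common library size) in at least 5 of the 10 libraries. They were Skint1, Skint5, Skint6, Skint7, Skint8, Skint10 and Skint11, out of 17016 gene symbols in the authors' values. Skint3, Skint4 and Skint9 were looked for and were not among these symbols, and they were not analysed here. Skint2, a family gene outside the listed symbols, was in the table and is given beside the members. The members were thus chosen by their measured level over all libraries, and the symbols were listed with the difference between the groups already known, so that difference is described here and supports nothing about the list. Skint7 was the member nearest its edge, with 8 libraries at 1 CPM or more (3 vehicle and 5 quinpirole), and the other 6 members reached it in all 10.

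The mice were female BALB/c animals aged 10 to 11 weeks, and each library held the RNA of whole skin. All received 5% imiquimod cream on the shaved back daily for 5 days; imiquimod activates TLR7 and brings about an inflammation that resembles psoriasis. One group was also injected in the peritoneum 5 times with quinpirole, which activates the dopamine receptor DRD2, and the other received vehicle, with 5 libraries in each group. Skin without imiquimod was not analysed here, and since the labels leave unsaid whether libraries are separate mice, the p-values reflect only the spread between these samples, which may be technical. Recovered reads per library lay between 6763367 and 8361877, and 1 read was worth 0.119 to 0.146 CPM.

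Skint proteins have immunoglobulin-like domains outside the cell followed by several membrane-spanning segments, and they resemble butyrophilins, relatives of the B7 co-signalling molecules. Skint1 is known for its part in the thymic selection of dendritic epidermal T cells (DETC), the gamma delta T cells that live between keratinocytes of mouse epidermis and take part in wound repair. DETC sense keratinocytes through the gamma delta receptor, NKG2D and JAML. Skint2 has also been described under the name B7S3 as a co-inhibitor of T cells. The roles of the other members are less well known.

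The family lies in 1 cluster on mouse chromosome 4. On mm10 the 8 measured genes extend from 111919392 to 114245028, a stretch of 2.33 Mb, and all are annotated as protein-coding. In chromosome order, Skint8 lies on the plus strand from 111919392 to 111950358, Skint7 on the plus strand from 111972923 to 111988223, and Skint1 on the plus strand from 112006269 to 112029538. Skint2 follows on the plus strand from 112557194 to 112652248. Skint10 lies on the minus strand from 112711147 to 112774866, Skint6 on the minus strand from 112804616 to 113286973, and Skint5 on the minus strand from 113477891 to 113999503. Skint11 closes the cluster on the plus strand from 114163384 to 114245028. Skint5 and Skint6 are the long members, with 59 and 49 exons in their longest coding transcripts against 4 to 8 in the other genes.

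The promoters of some members resemble each other. Among the 28 pairs of promoter windows of the 8 genes (250 bases before to 50 after the RefSeq start on GRCm38.p6), those of Skint5 and Skint6 had the most identical bases, 269 of 300 aligned, followed by Skint10 and Skint11 with 213 of 247. Skint7 and Skint8 were as similar over a shorter stretch, with 109 of 120 aligned bases identical. The aligned stretches upstream of the start are printed for Skint5, Skint6, Skint10 and Skint11, the 2 pairs with the longest likeness, whose levels over the libraries are compared further on. Each is given 5′ to 3′ on the strand of its gene, and capitals mark the bases that differ from, or are missing in, the other member of the pair. The Skint5 stretch is at chr4:113999506-113999753 and that of Skint6 at chr4:113286976-113287223, both on the minus strand. The Skint10 stretch is at chr4:112774913-112775111 on the minus strand, and the Skint11 stretch at chr4:114163177-114163383 on the plus strand.
Skint5: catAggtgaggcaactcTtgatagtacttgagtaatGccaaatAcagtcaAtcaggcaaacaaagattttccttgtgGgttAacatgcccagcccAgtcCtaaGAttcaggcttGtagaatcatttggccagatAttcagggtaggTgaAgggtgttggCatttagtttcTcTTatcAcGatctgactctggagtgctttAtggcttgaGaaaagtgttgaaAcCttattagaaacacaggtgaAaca
Skint6: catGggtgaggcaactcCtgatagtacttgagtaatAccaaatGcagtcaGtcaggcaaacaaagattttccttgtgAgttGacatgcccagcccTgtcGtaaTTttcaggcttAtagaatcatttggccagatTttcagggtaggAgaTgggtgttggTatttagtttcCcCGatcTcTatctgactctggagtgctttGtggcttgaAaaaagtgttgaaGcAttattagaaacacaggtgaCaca
Skint10: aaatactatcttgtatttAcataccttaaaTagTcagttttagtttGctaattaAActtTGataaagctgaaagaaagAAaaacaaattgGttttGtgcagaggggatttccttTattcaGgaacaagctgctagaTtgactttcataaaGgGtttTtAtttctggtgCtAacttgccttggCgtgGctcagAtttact
Skint11: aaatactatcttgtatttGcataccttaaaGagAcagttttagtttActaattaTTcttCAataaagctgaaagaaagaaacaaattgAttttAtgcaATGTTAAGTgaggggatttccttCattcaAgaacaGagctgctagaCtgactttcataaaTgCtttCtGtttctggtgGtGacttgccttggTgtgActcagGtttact

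The aligned stretches of Skint5 and Skint6 had 222 of 248 bases identical with no gap, and those of Skint10 and Skint11 175 of 197 with 12 gap bases. Printing was limited to bases upstream of both starts, so it stops at position -1 of Skint11, which aligns with position -52 of Skint10; the alignment itself continues past the start of Skint11. Of motifs searched in the 300-base windows on both strands, the AP-1 letters TGANTCA were found in 1 of 8 family promoters, Skint11, from position -15 to -9 relative to the start, and in 7.81% of 32851 promoters. The STAT letters TTCNNNGAA were in 1 of 8, Skint8, against 8.30% of promoters. The E-box CACGTG was in 0 of 8, against 7.15%.

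Near-identical stretches within transcripts were most common between Skint7 and Skint8. Of all 50-base words in the coding transcripts of Skint8, 16.3% also occurred in Skint7, and 10.6% of those of Skint7 occurred in Skint8. Skint5 and Skint6 shared 4.05% and 4.64% of theirs. Skint1, Skint10 and Skint11 shared none with another family gene. The levels of Skint7 and Skint8 are therefore uncertain where reads were divided between them, and the reference is from C57BL/6J while the mice were BALB/c.

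Skint10 and Skint1 had the highest levels per kilobase of longest coding transcript, and Skint7 the lowest. On this scale Skint10 averaged 9.07 ± 6.37 CPM per kb in vehicle libraries against 22.3 ± 8.18 in quinpirole libraries (SD, n = 5 each), and Skint1 11.9 ± 4.61 and 22.1 ± 7.44. Ordered by the median over 10 libraries, Skint10 (16.6) and Skint1 (16.1) were followed by Skint2 (7.82), Skint11 (7.75), Skint5 (6.86), Skint8 (2.44), Skint6 (2.36) and Skint7 (1.40). Neighbours in this order were not all distinct. Skint10 was above Skint1 in 2 of 10 libraries only, Skint2 above Skint11 in 7, and Skint8 above Skint6 in 8. Skint1 was above Skint2, and Skint5 above Skint8, in all 10. Reads behind single values ran from 3 to 44 for Skint7 and from 12 to 39 for Skint8, but from 97 to 348 for Skint5.

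Before the comparison, 3 libraries stood apart in the level of hair shaft genes. The mean log2 level of 28 hair shaft genes was between 0.61 and 0.81 in vehicle replicate 5 and quinpirole replicates 2 and 4, and between 3.25 and 6.87 in the other 7 libraries. Skeletal muscle genes had higher values with quinpirole in 20 of 20 tested (median log2 fold change 1.13), against 49.6% of all tested genes. At an unadjusted p under 0.05, 15 were higher, against 6.92% of all tested genes, and 0 were called. The muscle list means ranged from 5.27 to 6.98 in vehicle and from 6.24 to 8.34 with quinpirole. In whole skin, fewer cells of a type and less RNA per cell cannot be told apart, and each level below is a share of the RNA of all skin cells. Results are therefore also given without vehicle replicate 5, within the 7 libraries with higher hair shaft means, and with list means as covariates. Those 7 are called libraries with hair below, a name for the RNA level only.

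The comparison of quinpirole with vehicle asks how Skint RNA in imiquimod-treated skin differed with the DRD2 agonist. All 7 members averaged higher with quinpirole, by 1.37-fold (Skint8) to 2.46-fold (Skint10) in the ratio of mean CPM, but none passed the test over all genes. The summed level of the 7 members came to 38.2, 86.0, 49.8, 39.9 and 110.04 CPM in vehicle replicates 1 to 5. It was 99.2, 181, 135, 122 and 110.18 CPM in quinpirole replicates 1 to 5. The groups overlapped through vehicle replicate 5, which lay above quinpirole replicate 1, while the other 4 vehicle libraries lay below every quinpirole library.

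**Figure D1:**
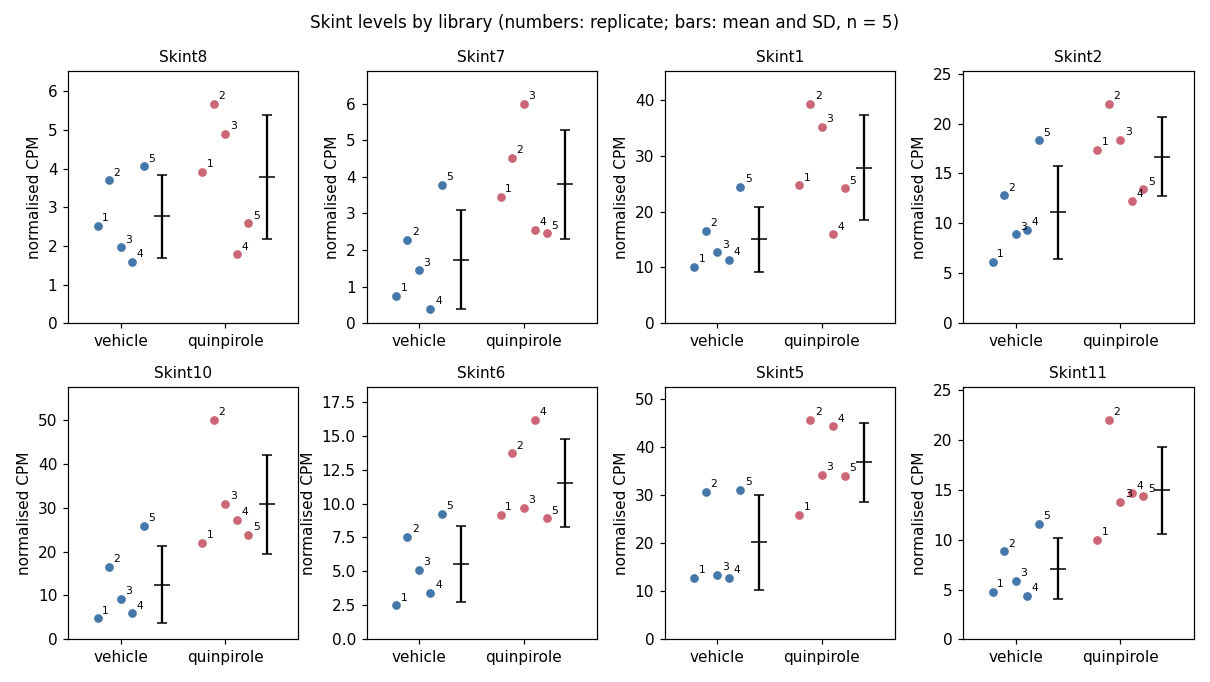
Normalised CPM of each Skint gene (y axis, linear from 0) in 5 vehicle and 5 quinpirole libraries (points, numbered by replicate), with the mean and SD of each group as black bars, genes in chromosome order. Vehicle replicate 5 is the highest vehicle library in each of the 8 panels.

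Skint1, the member with the known part in DETC selection, measured 10.1, 16.5, 12.7, 11.4 and 24.5 CPM in vehicle replicates 1 to 5. With quinpirole it measured 24.7, 39.3, 35.2, 15.9 and 24.2. Vehicle replicate 5 was level with quinpirole replicates 1 and 5, and quinpirole replicate 4 fell among the vehicle libraries. The group means were 15.0 ± 5.81 and 27.9 ± 9.37 (SD, n = 5 each). Fold changes are on the log2(CPM + 1) scale, where low genes appear to differ less than they do, and that of Skint1 was 0.85 with SE 0.26 (95% interval 0.27 to 1.43, limma adjusted p = 0.259).

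Its neighbours Skint7 and Skint8 were the low members. Skint7 measured 0.754, 2.28, 1.44, 0.396 and 3.78 CPM in vehicle, and 3.45, 4.52, 5.997, 2.54 and 2.45 with quinpirole. Each quinpirole library was above vehicle replicates 1 to 4 and 2 were above vehicle replicate 5 (log2 fold change 0.90, SE 0.33, limma adjusted p = 0.323). Skint8 measured 2.51, 3.70, 1.97, 1.59 and 4.05 CPM in vehicle, and 3.92, 5.68, 4.91, 1.78 and 2.58 with quinpirole. The groups overlapped over most of their range, and quinpirole replicate 4 was the second lowest of all libraries. Skint8 had the smallest log2 fold change of the members, 0.32, with a 95% interval from -0.27 to 0.91 (limma adjusted p = 0.700).

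Skint10 had the largest difference. It measured 4.78, 16.5, 9.30, 5.94 and 25.9 CPM in vehicle replicates 1 to 5, and 22.004, 49.96, 30.8, 27.2 and 23.8 with quinpirole. Vehicle replicate 5 lay above quinpirole replicates 1 and 5, and the other vehicle libraries were below all quinpirole libraries. The log2 fold change was 1.41 with SE 0.39 (95% interval 0.57 to 2.26, limma adjusted p = 0.229). Skint11, whose promoter resembles that of Skint10, measured 4.78, 8.83, 5.90, 4.36 and 11.6 CPM in vehicle and 9.99, 21.99, 13.8, 14.6 and 14.3 with quinpirole. Its single overlap was vehicle replicate 5 above quinpirole replicate 1. The log2 fold change of Skint11, 1.02 with SE 0.25 (95% interval 0.46 to 1.57), had the smallest p of the family (limma adjusted p = 0.201).

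The long members were both higher on average with quinpirole. Skint5 measured 12.8, 30.6, 13.4, 12.8 and 31.0 CPM in vehicle and 25.9, 45.6, 34.2, 44.3 and 34.0 with quinpirole. Here vehicle replicate 2 was also high, and both it and vehicle replicate 5 exceeded quinpirole replicate 1 (0.93, SE 0.28, limma adjusted p = 0.239, as log2 fold change). Skint6 measured 2.51, 7.55, 5.11, 3.43 and 9.23 CPM in vehicle and 9.16, 13.7, 9.68, 16.2 and 8.91 with quinpirole. All quinpirole libraries were above vehicle replicates 1 to 4, and quinpirole replicate 4 was the highest of all (1.005, SE 0.29, limma adjusted p = 0.236). Skint2, outside the listed symbols, measured 6.16, 12.8, 8.91, 9.38 and 18.3 CPM in vehicle and 17.4, 21.99, 18.4, 12.2 and 13.4 with quinpirole. Its log2 fold change was 0.60 with SE 0.25 (limma adjusted p = 0.385), with quinpirole replicate 4 below vehicle replicate 2.

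By limma 0 of 7 members passed an adjusted p of 0.05, where 3 of 14548 tested genes did (0.0206%; 0.0137% higher and 0.00687% lower). The log2 fold change was above 0 for 7 of 7 members and for 49.6% of tested genes. At an unadjusted p under 0.05, 6 of 7 members were higher and none lower, and Skint8 did not reach it, against 6.92% of tested genes higher and 4.47% lower. The median log2 fold change of the 7 members was 0.93, and that of all tested genes -0.0021. The values of all 10 libraries did not separate the groups for any member, where 1.34% of genes had all quinpirole libraries above all vehicle libraries. The quasi-likelihood test of edgeR, run on the recovered reads, called 0 members (5 genes, 0.0344%). DESeq2 called 1, Skint11, with a log2 fold change of 1.07 and an adjusted p of 0.0232, among 219 genes (1.51%).

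Vehicle replicate 5 was the highest vehicle library for 7 of 7 members. Without it the median log2 fold change was 1.13, Skint10 stood at 1.72 (limma adjusted p = 0.0782) and Skint11 at 1.195 (0.0794), and 0 members were called, while 6 of 7 were higher at an unadjusted p under 0.05, against 8.82% of genes. Since that library was the highest of its group for each member, leaving it out could only raise the difference. Without quinpirole replicate 2, the highest library of all for 5 of 7 members, the median was 0.85, Skint10 stood at 1.23 (limma adjusted p = 0.401) and 0 members were called. Within the 7 libraries with hair, 4 vehicle and 3 quinpirole, the log2 fold change was 1.51 for Skint10, 1.18 for Skint7, 1.09 for Skint1, 1.002 for Skint11, 0.94 for Skint6, 0.90 for Skint5 and 0.49 for Skint8. At an unadjusted p under 0.05, 6 of 7 members were higher there as well, against 6.88% of genes, and none passed the adjusted threshold. With the hair shaft mean as a covariate, Skint10 had 1.199 (limma adjusted p = 0.230), the members' median was 0.84, and 6 of 7 were higher at an unadjusted p under 0.05, against 6.1% of genes. The members' median was 1.002 within the 7 libraries with hair and 0.93 in all 10 libraries. Those 7 libraries also lack vehicle replicate 5 and quinpirole replicates 2 and 4, and the part of hair in the Skint values was not tested. Without quinpirole replicate 4 alone, Skint1 stood at 1.03 and Skint8 at 0.50, while Skint5 stood at 0.86 and Skint6 at 0.88. The members' median was then 0.99, and 0 members were called.

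**Figure D2:**
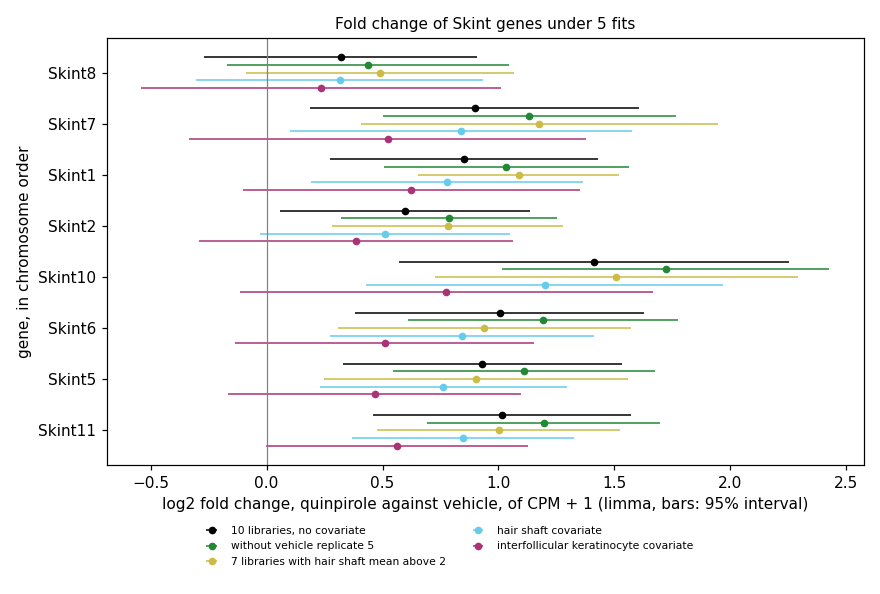
Log2 fold change of each Skint gene, quinpirole against vehicle, on the log2(CPM + 1) scale (x axis; points with 95% intervals from limma) under 5 fits, genes in chromosome order. Values are above 0 throughout, and those with the interfollicular keratinocyte covariate are the lowest for every gene, with intervals that include 0.

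The comparison was also fitted with the level of basal and spinous keratinocyte genes. Interfollicular is the label of this covariate, and its genes were not shown to be absent from hair follicles. The mean log2 level of 23 tested basal and spinous genes, by replicate number, was 8.63, 8.68, 8.72, 8.65 and 8.84 in the vehicle group, and 8.65, 8.97, 8.95, 9.03 and 8.80 with quinpirole. Quinpirole replicate 1 lay among the vehicle libraries, quinpirole replicate 4 was the highest, and 0 of the 23 genes were called by limma. At an unadjusted p under 0.05, 4 of them were higher and 1 lower, against 6.92% and 4.47% of tested genes. With this mean as a covariate the members' median was 0.52, the log2 fold change of Skint10 was 0.77 (limma adjusted p = 0.826), and 0 of 7 members reached an unadjusted p under 0.05, where 3.2% of genes were higher. With the skeletal muscle mean as a covariate the median was 0.79 and 3 of 7 members (Skint1, Skint10 and Skint11) reached it, where 4.06% of genes were higher. Both covariate means tended to be higher with quinpirole, so these fits cannot tell them apart from the group. The part of these basal and spinous genes, or of muscle, in the Skint values was not tested.

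All 21 pairs of members had a positive correlation of log2 levels over the 10 libraries, with Pearson's r between 0.45 and 0.98 and a median of 0.86. These values are a description, with no test, because the symbols were listed with the group difference known and that difference enters each correlation. The closest pair by r was Skint10 and Skint11, a pair with similar promoters (r = 0.98, rho = 0.93). Without the 2 libraries farthest from the median of Skint10, vehicle replicates 1 and 4, this pair had r = 0.97. Skint5 and Skint6 had r = 0.95 and rho = 0.92. Without the 2 libraries farthest from the median of Skint6, again vehicle replicates 1 and 4, they had r = 0.90. Likeness of profile did not follow likeness of promoter throughout: Skint1 and Skint2, outside these pairs, had r = 0.94 and rho = 0.98. Skint5 and Skint11, also outside them, had r = 0.96, above Skint5 and Skint6. Skint7 and Skint8, whose promoters are similar over a shorter stretch, had r = 0.81, below the median of the pairs. The loosest pair was Skint6 and Skint8, with r = 0.45 and rho = 0.50. Without the 2 libraries farthest from the median of Skint8, vehicle replicate 4 and quinpirole replicate 2, it had r = 0.12. Both genes of a pair come from the same libraries and share their depth and composition. With the group means subtracted, r over the member pairs ranged from 0.31 to 0.95, and that of Skint1 and Skint2 was 0.92.

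Quinpirole replicate 4 divided the cluster along the chromosome. In that library the genes at the end with Skint8 were low or near their own means, at -0.55 for Skint8, 0.07 for Skint7, -0.28 for Skint1 and -0.09 for Skint2 (log2 level minus the gene's mean over 10 libraries). The genes at the other end were high, at 0.60 for Skint10, 0.99 for Skint6, 0.75 for Skint5 and 0.52 for Skint11. Vehicle replicates 1, 3 and 4 were below the mean for all 8 genes, and vehicle replicate 5 and quinpirole replicates 1, 2 and 3 above it for all 8. Pairs among Skint10, Skint6, Skint5 and Skint11 had r from 0.93 to 0.98, and pairs between these and Skint8, Skint7 or Skint1 from 0.45 to 0.92. Without quinpirole replicate 4 the pairs between the sets ranged from 0.81 to 0.98, so the division rests on that library. The sets were chosen after these values were seen and were not tested. Quinpirole replicate 4 also had the highest skeletal muscle mean, 8.34, and a hair shaft mean of 0.72.

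**Figure D3:**
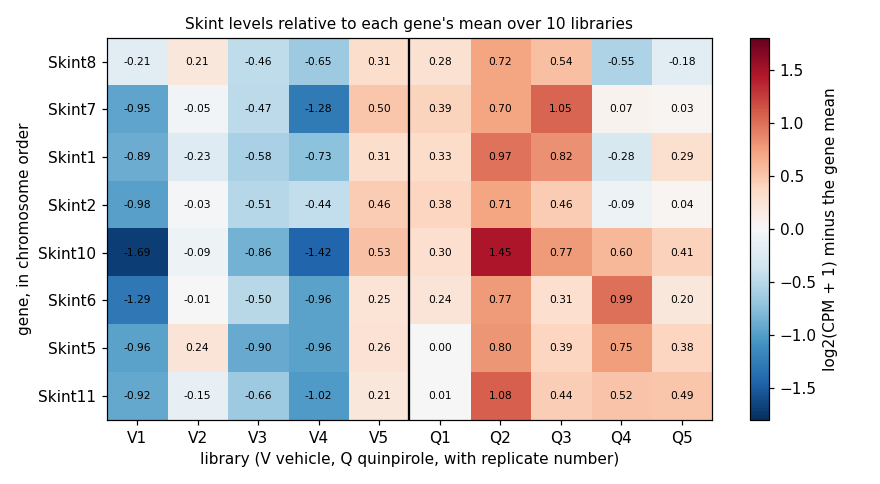
Log2(CPM + 1) minus each gene's mean over 10 libraries (colour and printed value), with the Skint genes in chromosome order as rows and the libraries as columns (V vehicle, Q quinpirole). Column Q4 goes from -0.55 at Skint8 to 0.99 at Skint6, while columns V1, V3 and V4 are below 0 in every row.

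The genes whose levels followed the members most closely came from several pathways. The profile compared was the mean over 7 members of the centred log2 level, and likeness was Pearson's r over the 10 libraries, given as a description. The closest gene outside the family was Agpat5, an acyltransferase of phospholipid synthesis, with r = 0.99 (rho = 0.98; r = 0.97 with group means subtracted). Cyp2b19, a cytochrome P450 of differentiated keratinocytes, followed with r = 0.97, as did Oas1f, Clca3a2 and Bbox1, the last enzyme of carnitine synthesis, each with r = 0.97. Sult5a1 (0.97), Cnst (0.96), Acpp (0.96), Ctnnbip1 (0.96) and Aif1l (0.96) completed the closest 10. Their log2 fold changes ran from 0.20 for Cnst to 1.01 for Bbox1, and none passed the limma threshold (adjusted p 0.195 to 0.478).

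Genes of the epidermal layers were examined next, with no test between layers. Granular and cornified genes belong to the last living and the dead layers of the epidermis. Of 19 tested, 15 had higher values with quinpirole (median log2 fold change 0.46), against 49.6% of all tested genes. At an unadjusted p under 0.05, 8 were higher and 1 lower, against 6.92% and 4.47% of all tested genes, and 0 were called. Lce1m, a late cornified envelope gene, averaged 41.1 CPM in vehicle against 125 CPM in quinpirole libraries (1.63, limma adjusted p = 0.159), Lce1c had 0.96 (0.237) and Lce1b 0.88 (0.256). Averaged over the list, the log2 level was 7.77, 8.46, 8.25, 8.20 and 8.78 in vehicle libraries 1 to 5 and 8.28, 9.05, 8.92, 8.79 and 8.72 with quinpirole. Like the Skint profile, it was highest in quinpirole replicate 2 and, within vehicle, in replicate 5. So was the mean of the 14 keratinocyte genes that act on DETC, examined below (4.98 and 4.90).

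Spinous genes had a median of 0.20 with 8 of 11 higher, led by Krt77 (1.37, limma adjusted p = 0.232), Krt10 (0.66, 0.281) and Calml3 (0.33, 0.431). Basal genes had a median of -0.0096 with 5 of 12 higher. Col17a1, a hemidesmosome collagen, stood at 0.52 (limma adjusted p = 0.239), Itga3 at -0.33 (0.316) and Krt15 at 0.60 (0.561). Genes of the stressed, inflamed keratinocyte went the other way: 10 of 10 had lower values with quinpirole, with a median of -0.90. At an unadjusted p under 0.05, 8 were lower, against 4.47% of all tested genes, though 0 were called. Defb3, a defensin, stood at -1.95 (limma adjusted p = 0.174), S100a9 -1.05 (0.260) and S100a8 -0.98 (0.270). The list means ranged from 10.3 to 11.2 in vehicle and from 9.28 to 10.3 with quinpirole. Vehicle replicate 5, the vehicle library with the most Skint RNA, had a stress mean of 11.0, near the top of its group. The part of either list in the Skint values was not tested.

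**Figure D4:**
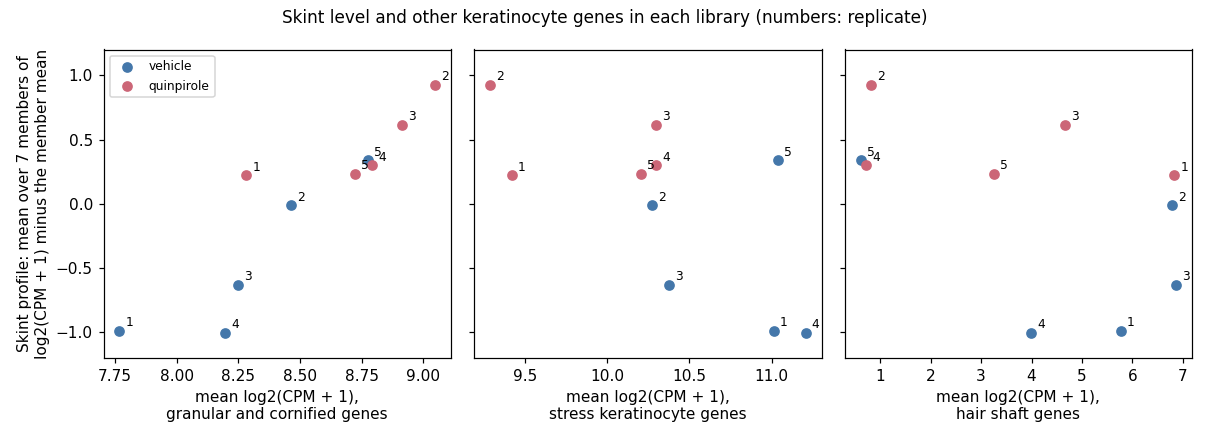
The Skint profile of each library (y axis: mean over 7 members of log2(CPM + 1) minus the member mean) against the mean log2(CPM + 1) of granular and cornified, stress keratinocyte and hair shaft genes (x axes), with points numbered by replicate. Quinpirole replicate 2 has the highest Skint profile, 0.93, with the highest granular mean and the lowest stress mean; vehicle replicate 5, at 0.34, lies among the quinpirole libraries for granular genes but not for stress genes.

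Sebaceous gland genes, of another skin epithelium, had higher values in 14 of 14 (median log2 fold change 0.69), against 49.6% of all tested genes. At an unadjusted p under 0.05, 10 were higher, against 6.92% of all tested genes, and 0 were called. The summed level of the sebaceous list was 2607 to 5224 CPM in vehicle and 4392 to 6800 with quinpirole. Krt79, Elovl6 and Fa2h led the list, at 0.73, 0.93 and 1.19 (limma adjusted p 0.169 to 0.178). Hair shaft genes were lower in 28 of 28 (median -1.60), with 0 at an unadjusted p under 0.05, and their summed level ranged from 50.5 to 7788 CPM in vehicle and from 50.4 to 7583 with quinpirole.

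The partners of the Skint genes in the dialogue of keratinocytes and DETC were then examined. Of 14 tested keratinocyte genes that act on these T cells, 9 had higher values, with a median log2 fold change of 0.25. At an unadjusted p under 0.05, 4 were higher and 1 lower, against 6.92% and 4.47% of all tested genes, and 0 were called. H60c, a ligand of NKG2D, stood at 0.58 (limma adjusted p = 0.266), Cxadr, the ligand of JAML, 0.34 (0.270), and Il15ra, which presents IL-15, 0.36 (0.293). The gamma delta receptor genes listed for DETC (Trdc, Trgc1 or Tcrg-C1, Trgv5 or Tcrg-V5 and Trdv4) were not among the symbols. The number of these cells was therefore not measured here. Of 23 tested genes that DETC carry or share with other cells, 10 had higher values and 13 lower (median -0.10). At an unadjusted p under 0.05, 3 of the 23 were higher and 2 lower, against 6.92% and 4.47% of all tested genes, and 0 were called. Genes of this list are not specific: Igf1 (0.56, limma adjusted p = 0.126), Sema4d (-0.53, 0.237) and Ahr (0.44, 0.293) are expressed by many skin cells. Gzmc, a granzyme, stood at 0.74 (limma adjusted p = 0.301), with 2.12 CPM in vehicle against 4.46 CPM with quinpirole on average. The quinpirole libraries all lay above the vehicle libraries for Gzmc and for Igf1, 2 of the 23 tested genes, against 1.34% of all tested genes. Tmem176b, the remaining lower gene at that unadjusted p, stood at -0.33 (limma adjusted p = 0.306). The chains of the T cell receptor complex had values of 0.14 for Cd3e, -0.20 for Cd3g and -0.35 for Cd3d, with SE of 0.32, 0.34 and 0.27. The receptors Klrk1 (NKG2D) and Amica1 (JAML) stood at 0.15 (SE 0.22) and -0.25 (SE 0.28).

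Relatives of the Skint genes outside the cluster had a median on the other side of 0. Of 20 listed butyrophilin and B7 genes 8 were tested, 2 had higher and 6 lower values (median log2 fold change -0.16), and 0 reached an unadjusted p under 0.05. Icosl stood at 0.24 (SE 0.13), Ermap at 0.24 (SE 0.21) and Cd86 at -0.21 (SE 0.21). Genes of STAT3 signalling, a pathway that acts in wounded epidermis, had a median of 0.03 with 11 of 15 higher. At an unadjusted p under 0.05, 1 was higher and 1 lower, against 6.92% and 4.47% of all tested genes, and 0 were called. Il20ra, a receptor chain for cytokines of the IL-20 family, stood at 0.72 (limma adjusted p = 0.169), and Osm, a cytokine, at -1.03 (0.433).

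**Figure D5:**
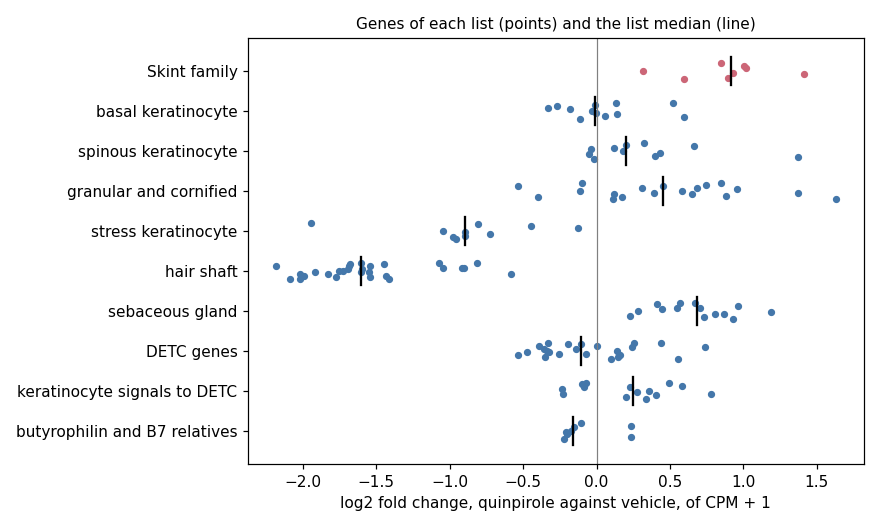
Log2 fold change, quinpirole against vehicle, on the log2(CPM + 1) scale (x axis) of each tested gene (points) in 10 lists (rows), with the list median as a line. The 8 Skint family genes lie between 0.32 and 1.41, the stress keratinocyte genes are all below 0, and DETC genes lie on both sides of 0.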

How the data were processed

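The deposited signal values are reads normalised by the authors, for 17016 gene symbols in 10 columns, matched to samples by their labels. Bowtie2, edgeR, RSEM 1.3.0, Trimmomatic 0.38 and the mm10 build are listed without roles, per the submitters' processing notes; the libraries were directional and depleted of ribosomal RNA, per the labels' protocols. RSEM can divide reads between similar genes. Divided by the worth of 1 read, 100% of values came out whole (within 1e-06), which recovered the reads, and edgeR's TMM factors on them equalled the implied scaling, so values are CPM.

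Genes with at least 1 CPM in 5 libraries (14548) were tested on log2(CPM + 1) with limma 3.58.1 (trend, no covariate, two-sided, Benjamini-Hochberg) in R 4.3.3. The steps were tested on simulated data. Named genes were the family, up to 3 genes of smallest p per list, and the 10 closest profiles. Further genes, including Cd3 chains, Klrk1, Amica1, Gzmc and Tmem176b, were chosen after their values were seen. The members and lists were chosen with earlier results of these data known. Alternatives used edgeR 4.0.16, DESeq2 1.42.0, other pseudocounts, filters, scalings, covariates, a replicate block and left-out libraries. The 7 libraries with hair, and leaving out vehicle replicate 5 with quinpirole replicate 2, were chosen after seeing the data. Positions are from GENCODE M21 (mm10) and promoters from RefSeq (GRCm38.p6), with 8 of 8 genes matched. Figures used matplotlib 3.10.9.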

Additional observations from a re-analysis of the deposited data

How the results depend on the processing

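Over 25 alternatives, all 173 log2 fold changes of members were above 0, and 1 passed the adjusted threshold (Skint11 by DESeq2). Members called numbered 1 by DESeq2 and 0 in the other 24. The lowest value of a member over its alternatives was 0.17 (Skint8) and the highest 1.72 (Skint10), and the members' median ran from 0.52 to 1.13. Over all genes, 3 were called by limma, 5 with a pseudocount of 0.1 CPM, 6 without a filter, 5 with a filter of 5 CPM, 5 with median-of-ratios scaling, 9 without the trend, 5 by edgeR, 219 by DESeq2 and 14 with the hair covariate. None was called (0) with the muscle or interfollicular covariate, or without both vehicle replicate 5 and quinpirole replicate 2, where 1215, 931 and 1761 genes had an unadjusted p under 0.05. Leaving out single libraries gave 0 to 10 genes, with 0 for 8 of 10 libraries, and 0 members each time. The cause was not tested. With the replicate number as a block 0 genes and 0 members were called. Same-numbered libraries deviated together over all tested genes with r from -0.24 to 0.22. This cannot decide whether the numbers pair the samples, since such deviations also carry the hair and muscle levels of each library. The labels do not say whether a number is shared. Skint7 and Skint8 could not be tested under the filter of 5 CPM. Depth limits Skint7, with 3 reads in vehicle replicate 4.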
